A study of Rattus norvegicus with 13 samples.

Results

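The windows described here carried a weak double-strand break (DSB) hotspot signal in WKY testes and little or none in wild-type SHR testes. They were chosen by their measured hotspot strengths on chromosomes 1 to 20, namely a WKY strength from 80 to 149, strengths of 20 or less in both wild-type SHR and BN, and a strength of 15 or less in SHR lacking PRDM9. Of the 96640 windows in the table, 91120 lie on these autosomes, and 5539 met all 4 limits. They are called weak WKY windows below the SHR ceiling. A further 3721 windows met the WKY, BN and PRDM9-deficient limits with an SHR strength above 20. They are called weak WKY windows above the SHR ceiling.

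The study mapped DSBs in adult rat testes by single-stranded DNA sequencing (SSDS) after precipitation with an anti-DMC1 antibody. The 5 libraries used here came from wild-type WKY, wild-type BN/RIJHsd (BN), wild-type SHR/OlaIpcv (SHR), SHR heterozygous for a Prdm9 deletion (Prdm9+/-, here KO/wt) and SHR homozygous for one (Prdm9-/-, here KO/KO). SHR is the spontaneously hypertensive rat and WKY (Wistar Kyoto) a related strain with the same Prdm9 allele, whereas BN (Brown Norway) carries another allele. Per the methods, the KO/KO male had a truncating deletion in an exon encoding the PR/SET domain, and its wild-type littermate was the SHR control. The deletion of the KO/wt male is not given in the sources used here. Each condition had 1 library, so that no difference between them has a replicate check, no test was run, and all intervals cover the spread over windows only. Every window has a mark for a called hotspot and a strength in each library. Strengths are whole numbers, some of them negative. Their definition and scaling are not given in the sources used here, so a value of 0 is not known to be a true zero and a ratio between libraries carries an unknown scale. Depth in reads is unknown, and the strain and the depth of a library cannot be told apart.

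PRDM9 is a meiotic histone methyltransferase whose zinc fingers bind DNA and place H3K4me3, and DSBs then form nearby. The alleles differ in the zinc fingers, so that strains sharing an allele tend to share hotspots, while in the absence of PRDM9 the breaks move to other H3K4me3 sites such as promoters. DMC1 coats the single-stranded DNA at a break, so that the DMC1 signal rises with the number of breaks and with how long they persist, and weak hotspots are used in only few cells.

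The call marks were compared with the name of the set first. Of the 5539 windows, 5480 were called as a hotspot in WKY, or 98.9% (Wilson 95% interval 98.6 to 99.2%), beside 38.3% of all autosomal windows. In wild-type SHR 72 were called, or 1.30% (1.03 to 1.63%), beside 21.8% of all autosomal windows. In BN 0 of 5539 were called, beside 20.8%, and in KO/KO 3 were, beside 38.8%. These shares follow largely from the strengths used to choose the windows, and nothing is read from them except that 72 windows below the ceiling were nonetheless called in SHR. The KO/wt library took no part in the choice. It had a call in 177 of the windows, or 3.20% (2.76 to 3.69%), beside 21.6% of all autosomal windows. WKY was the sole library with a call at 5302 windows (95.7%), while 59 had no WKY call despite a WKY strength of 80 or more.

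Strength in both SHR libraries was low and mostly above 0, and so it was in BN and KO/KO. The median wild-type SHR strength was 10 (quartiles 4 and 15, mean 9.19, interval of the mean 9.01 to 9.38), under a ceiling of 20 set by the choice. It was above 0 in 89.6% of the windows and above 10 in 45.9%, and 577 had a strength of 0 or less. Over all autosomal windows, 76.3% had a wild-type SHR strength above 0. BN has the other Prdm9 allele, yet it was above 0 in 88.0% of the weak WKY windows below the ceiling and above 10 in 36.0%. KO/KO was above 0 in 70.3% of them. BN and KO/KO were under ceilings as well. In the KO/wt library, where no ceiling was applied, the median was also 10 (exact interval 10 to 10), with quartiles of 5 and 16 and a mean of 11.2 (11.0 to 11.5). KO/wt strength was above 0 in 93.2% of the windows (92.5 to 93.8%), above 10 in 47.0% and above 20 in 13.3%. Over all autosomal windows the KO/wt median was 10 too. There, KO/wt strength was above 0 in 89.6%, above 10 in 49.8% and above 20 in 31.8%. The median WKY strength of the weak WKY windows below the ceiling was 112, with quartiles of 98 and 128.

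The levels of wild-type SHR and KO/wt away from their own hotspots were read at other windows. These had a BN strength of 50 or more and a WKY strength of 50 or less. The allele of SHR and WKY is not known to direct breaks there. There were 12151 such windows, called BN comparison windows, of which 98.4% were called in BN. Wild-type SHR had a median strength of 1 there (quartiles 0 and 4, mean 1.36, interval 1.05 to 1.68), and it was above 0 in 54.7% of them. Median KO/wt strength was 3 (exact interval 3 to 3), with quartiles of 0 and 6. It was above 0 in 73.7% of the BN comparison windows (72.9 to 74.5%), above 10 in 8.01% and above 20 in 1.09%. In this single KO/wt library the weak WKY windows were therefore higher than the comparison windows, with the lower quartile of the former (5) near the upper quartile of the latter (6). Calls were fewer in the comparison windows too, 33 in KO/wt (0.272%) and 14 in wild-type SHR (0.115%).

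**Figure D1:**
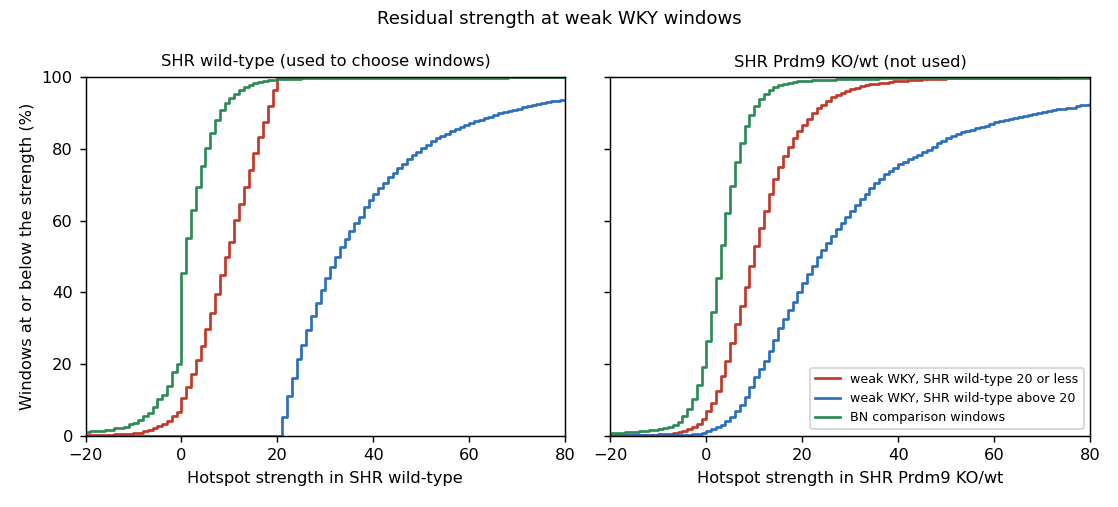
Share of windows (%) at or below each hotspot strength (authors' score) in wild-type SHR (left) and KO/wt (right), for weak WKY windows below and above the SHR ceiling and for BN comparison windows. In KO/wt, which was not used to choose the windows, the curves cross the middle at medians of 10, 24 and 3, and in wild-type SHR the ceiling of 20 divides the weak WKY curves.

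Holding the comparison windows to the limits of the weak WKY windows left their medians the same and removed most of their high values and calls. In the 11418 BN comparison windows that also stayed under the SHR ceiling of 20 and the KO/KO ceiling of 15, the wild-type SHR median was 1 and the KO/wt median 3, KO/wt was above 20 in 0.333% of them, and 2 were called in each of these libraries. Swapping the roles of the strains, with BN between 80 and 149 and WKY and SHR at 20 or less, left 1975 windows. Their mean wild-type SHR strength was 0.221 (-0.200 to 0.642) and their median KO/wt strength was 2, above 0 in 69.1% (67.0 to 71.1%). A different level was seen at windows called in KO/KO alone, which are sites of breaks in the absence of PRDM9. At these 33137 windows the median was 7 in KO/wt and 2 in wild-type SHR, so that KO/wt strength at the weak WKY windows exceeded this level by less than it exceeded that of the comparison windows. KO/wt was above 0 in 88.3% of the KO/KO-only windows and above 10 in 32.7%. They were chosen to have no call in wild-type SHR, KO/wt, WKY or BN, which bears on their levels in those libraries.

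The other libraries did not give a common zero. The median BN strength at the weak WKY windows was 8 (quartiles 4 and 12), although BN has the other Prdm9 allele, and it was also 8 at the KO/KO-only windows. In the KO/KO library the median was 3 at the weak WKY windows and 3 at the BN comparison windows. WKY had a median of 19 at the KO/KO-only windows, where wild-type SHR had 2. At the BN comparison windows, chosen with a WKY strength of 50 or less, the WKY median was 20. Which of these levels is the right reference for a strength of 10 in SHR was not tested. For KO/wt itself, the median was 3 at the BN comparison windows and 7 at the KO/KO-only windows.

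Within the weak WKY windows, KO/wt strength was higher where wild-type SHR strength was higher. At the 577 windows with a wild-type SHR strength of 0 or less, median KO/wt strength was 6 (6 to 7). It was 8 at SHR strengths from 1 to 5, 9 from 6 to 10, 11 from 11 to 15 and 13 (12 to 13) from 16 to 20. At BN comparison windows in the same 5 SHR ranges it was 3, 3, 4, 5 and 6 (5 to 8). At equal SHR strength, therefore, the weak WKY windows had the higher KO/wt median in each of the 5 ranges. KO/wt strength above 20 was seen at 6.59% of the weak WKY windows in the lowest SHR range and at 23.3% in the highest, against 0.418% and 10.9% of the comparison windows. The highest range held 1178 weak WKY windows and only 128 comparison windows. The comparison windows were not held to the KO/KO ceiling here, and their mean KO/KO strength in that range was 17.8, against 2.04. Among windows that overlap no other window, the medians were 6, 8, 9, 11 and 13 at the weak WKY windows and 3, 3, 4, 5 and 6 at the comparison windows.

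**Figure D2:**
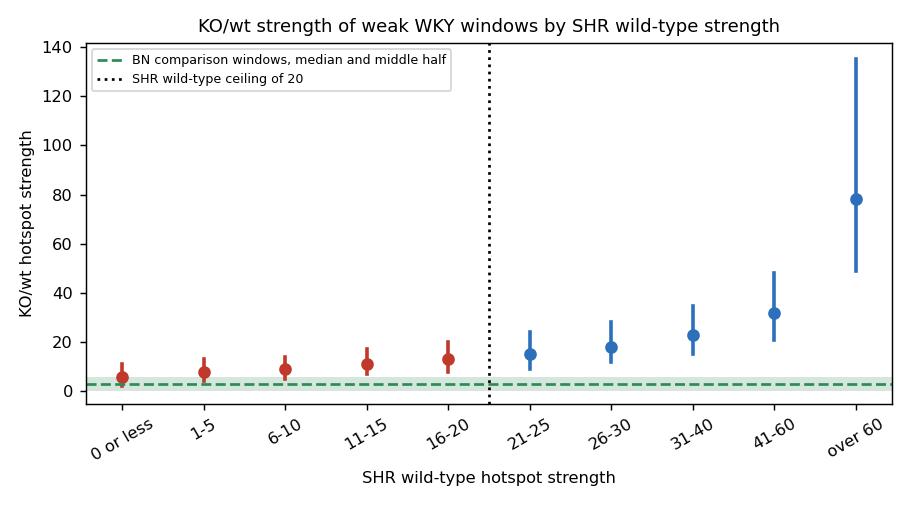
KO/wt hotspot strength (authors' score) of weak WKY windows in ranges of wild-type SHR strength, with points for medians, bars for quartiles and a dotted line at the SHR ceiling of 20. The medians run from 6 at SHR strengths of 0 or less to 13 at 16 to 20 and 78 above 60, while the dashed line and green band mark the median of 3 and the quartiles of 0 and 6 of all BN comparison windows.

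KO/wt strength was similar just inside and just outside the ceiling. The 689 windows just inside it, with SHR strengths of 18 to 20, had a median KO/wt strength of 13 (quartiles 8 and 21), and 5.52% of them were called in SHR. Just outside it, the 601 windows with SHR strengths of 21 to 23 had a median KO/wt strength of 15 (quartiles 9 and 23), and 11.8% were called. Farther above the ceiling, the KO/wt median went on to 18 at SHR strengths of 26 to 30, 32 at 41 to 60 and 78 above 60. Whether the windows on either side of the ceiling form separate classes was not tested. All 3721 windows above the ceiling had a median of 24 in KO/wt and, fixed by the choice, of 33 in wild-type SHR. Of these, 30.3% were called in KO/wt.

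Within the weak WKY windows the medians differed little with WKY strength, under limits on WKY and SHR strength that narrow both ranges. From WKY strengths of 80 to 89 up to those of 140 to 149, the median KO/wt strength of the weak WKY windows went from 9 to 11, and so did the median wild-type SHR strength, which the ceiling caps. Without the ceiling on SHR, however, and with those on BN and KO/KO kept, median wild-type SHR strength was 14 at WKY strengths of 80 to 99, 20 at 120 to 149 and 42 at 200 to 299. The share of these windows with an SHR strength of 20 or less was 42.9% at WKY strengths of 40 to 59, 62.3% at 60 to 79, 67.4% at WKY strengths of 80 to 99, 64.3% at 100 to 119, 52.0% at 120 to 149, 36.0% at 150 to 199, 17.8% at 200 to 299, 5.81% at 500 to 999 and 8.87% at 1000 or more. It was thus highest at 80 to 99 and lower on both sides. At 40 to 59, however, 32.6% of the windows were called in WKY and 48.7% in wild-type SHR, beside 91.0% and 16.7% at 80 to 99. The weak WKY windows were chosen from a range in which most such windows fell below the ceiling, as most also did at 60 to 79. The table lists windows with a call in at least 1 library, so that a weak WKY window called nowhere would not be in it. How far this sets the lower share at 40 to 59 was not tested.

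Strength in SHR was also set against WKY strength as a ratio, which the choice of low SHR values makes small at the weak WKY windows. Summed over the 5539 windows, wild-type SHR strength was 8.13% of WKY strength, and KO/wt strength 9.94% of it. At the 6102 strong WKY windows, those with a WKY strength of 500 or more, the summed shares were 21.8% and 26.6%. The median ratio to WKY of the strong windows was 19.6% in either library. A window at the median WKY strength of 112 would at that ratio have an SHR strength of 21.9 and a KO/wt strength of 22.0, just above the ceiling. For wild-type SHR the shortfall was fixed by the ceiling. In KO/wt, whose strength varies with that of wild-type SHR, 4942 of the 5539 windows (89.2%) lay below the strength proportional to their own WKY value, and so did 72.9% of the weak WKY windows of any SHR strength. Over these 9260 windows, without a ceiling on SHR, the summed shares were 19.5% (wild-type SHR) and 18.7% (KO/wt). Both were lower than the summed shares of the strong windows, 21.8% and 26.6%. The median ratios to WKY over the 9260 windows, 14.4% and 11.9%, also lay below the 19.6% at the strong windows. The low share at the weak WKY windows below the ceiling stood beside a higher share above it (35.7% and 31.2%). The ratio differs from library to library with the unknown scale of strength. It also depends on the level of WKY away from its hotspots, with a median of 19 at the KO/KO-only windows. That level was not taken off, and it is a larger part of a weak WKY strength than of a strong one. How much it adds to the difference between weak and strong windows was not tested. The ratios also depend on which windows are in the table, as each has a call in at least 1 library. Of the 9260 weak windows, 95.5% were called in WKY, 19.6% in wild-type SHR and 14.1% in KO/wt. Of the 6102 strong windows, 5184 were called in wild-type SHR and 5088 in KO/wt. How far entry through a WKY call lowers the ratios of the weak windows, or raises the 72.9%, was not tested.

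**Figure D3:**
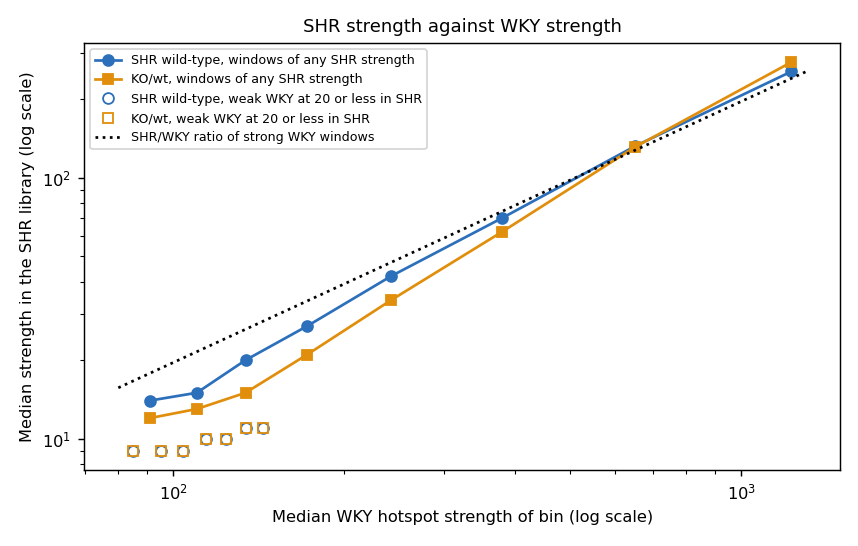
Median hotspot strength (authors' score, log scale) in wild-type SHR and KO/wt against the median WKY strength (log scale) of each bin of WKY strength, for windows of any SHR strength (filled) and for weak WKY windows at 20 or less in SHR (open), with a dotted line for the median ratio of the strong windows. The filled KO/wt median goes from 12 at WKY strengths of 80 to 99 to 131 at 500 to 999, and the open symbols go from 9 to 11.

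The spread between single windows was wide. KO/wt strength ran from -116 to 102 and wild-type SHR strength from -53 to 20, and 4672 windows (84.3%) were above 0 in both SHR libraries. In 1476 windows (26.6%) both were above 10. Their medians were 17 in KO/wt and 15 in wild-type SHR, with a median WKY strength of 115. In only 87 windows (1.57%) were both at 0 or less, and their median WKY strength was 103. A KO/wt strength above 50 was found in 21 windows, 19 of them called in KO/wt and 2 in wild-type SHR.

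Part of the low end of this spread went with windows that overlap another window. Windows are 3000 bp long, and 738 of the weak WKY windows (13.3%) share sequence with a neighbour. Those overlapping none were lowest at -21 in wild-type SHR and -13 in KO/wt, whereas all 8 windows with a KO/wt strength below -20 overlapped another one. The median KO/wt strength was 9 in the overlapping windows and 10 in the others. Without the overlapping windows the level of the set was almost the same.

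The windows at the extremes were of both kinds. The highest KO/wt strength was that of chr19:34861680-34864680, with strengths of 102 in KO/wt, 4 in KO/KO, 121 in WKY, 17 in BN and -4 in wild-type SHR. It was called in wild-type SHR and KO/wt and not in WKY. It is overlapped by 2 windows with WKY strengths of 272 and 245, wild-type SHR strengths of 105 and 92 and KO/wt strengths of 94 and 96. Next came chr14:86839018-86842018, which overlaps no other window. It was called in WKY and KO/wt, with strengths of 131 in WKY, 14 in wild-type SHR and 91 in KO/wt. The window chr9:79244966-79247966 had 110 in WKY, 20 in wild-type SHR and 87 in KO/wt, and overlaps a window with a KO/wt strength of 18.

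The lowest values sat beside stronger hotspots. The window chr5:77327908-77330908 was lowest in both SHR libraries, with strengths of 97 in WKY, -53 in wild-type SHR and -116 in KO/wt. It is overlapped by a window with a WKY strength of 46 and strengths of 314 in KO/wt and 261 in wild-type SHR. The next lowest in KO/wt, chr1:195346692-195349692, had 80 in WKY, 20 in wild-type SHR and -78 in KO/wt, and 2 of the windows that overlap it had KO/wt strengths of 272 and 285. The next lowest in wild-type SHR was chr15:93679862-93682862, with 93 in WKY, -38 in wild-type SHR and -2 in KO/wt. It is overlapped by a window with an SHR strength of 79.

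The weak WKY windows were spread over all 20 autosomes. Their number per 100 windows called in WKY went from 14.4 on chromosome 4 (357 windows) to 17.7 on chromosome 20 (124 windows). The share of weak WKY windows lying below the SHR ceiling was lowest on chromosome 16, at 51.5% (46.1 to 56.8%), and highest on chromosome 15, at 66.8% (61.9 to 71.5%). Their mean KO/wt strength was between 8.69 (chromosome 20) and 12.3 (chromosome 5). By position on the chromosome, 354 windows lay in the first 10 Mb, 4743 in the interior and 442 in the last 10 Mb, with median KO/wt strengths of 10, 10 and 9. Most stood alone among the windows of the table, as 382 runs of consecutive windows held 817 of them (14.8%). The set holds 5539 of the 91120 autosomal windows, so this follows largely from its size and is not read as a trait of the set. The longest runs had 5 windows each. One spanned chr1:123194928-123296695, with WKY strengths of 85 to 124, wild-type SHR strengths of -10 to 6 and KO/wt strengths of 5 to 18. The other spanned chr3:150282664-150361962, with WKY strengths of 88 to 143, wild-type SHR strengths of -2 to 20 and KO/wt strengths of 10 to 30. All 10 windows were called in WKY alone.

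The next question was where these windows lie relative to strong WKY hotspots. The choice did not use position, but its strength limits bear on windows that overlap a strong one. The median distance from a weak WKY window below the ceiling to the nearest of the 6102 strong WKY windows, centre to centre, was 146 kb (exact interval 141 to 153 kb), with quartiles of 59.9 and 318 kb. It was 188 kb (179 to 198 kb) for weak WKY windows above the ceiling, 119 kb (116 to 122 kb) for the BN comparison windows and 134 kb for all autosomal windows that are not strong themselves. Within 100 kb of a strong window were 38.2% (36.9 to 39.5%) of the weak WKY windows below the ceiling, 32.6% of those above it and 44.4% of the BN comparison windows. By these medians and shares, the weak WKY windows below the ceiling lay closer to strong WKY hotspots than those above it, and farther than the BN windows. Strong and weak windows were set by single libraries, so this order has no replicate check. The order of the 3 sets was the same with strong windows defined by a WKY strength of 300 or of 1000 or more.

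**Figure D4:**
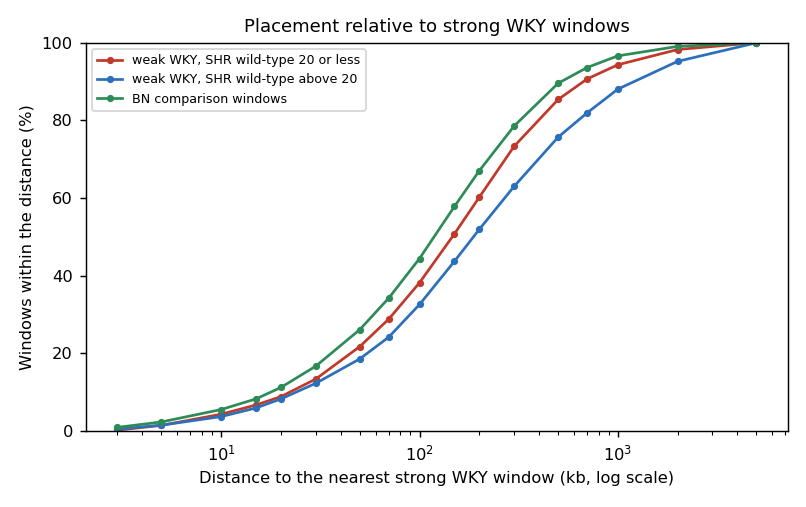
Share of windows (%) with a strong WKY window (WKY strength of 500 or more) within a given distance (kb, log axis) for each set of windows. Within 100 kb lie 38.2% of the weak WKY windows below the SHR ceiling, 32.6% of those above it and 44.4% of the BN comparison windows.

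The share of weak WKY windows next to a strong hotspot was near that of other windows at 10 kb and lower at 3 kb. Within 10 kb of one lay 241 (4.35%), beside 4.85% of all autosomal windows that are not strong themselves. Within 3 kb lay 14 (0.253%), beside 0.976%. Windows are 3000 bp long, so windows with centres this close overlap. The strength limits therefore bear on the share within 3 kb, and nothing is read from it. The closest without overlap was chr7:73455126-73458126, at 3.01 kb, with strengths of 114 in WKY, 7 in wild-type SHR and 19 in KO/wt. The strong window beside it had 604 in WKY, 116 in wild-type SHR and 82 in KO/wt. Next was chr2:139786358-139789358, at 3.11 kb, with strengths of 133, 18 and 11 in the same 3 libraries. Both were called in WKY alone. Around strong windows, the density of weak WKY windows below the ceiling was 2.80 per Mb between 3 and 10 kb away and between 2.35 and 2.52 per Mb in the shells beyond, so no marked clustering around strong windows was seen at these distances. At the other end, chr5:91371193-91374193 was 4752 kb from any strong window, with strengths of 90 in WKY, 6 in wild-type SHR and 23 in KO/wt. The window chr1:706755-709755, at 4460 kb, had strengths of 84, 2 and 20. The median number of strong windows within 1 Mb was 5 for the weak WKY windows below the ceiling, 4 for those above it and 6 for the BN comparison windows.

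Residual KO/wt strength varied little with distance below the ceiling. It had a median of 10 at 3 to 10 kb from a strong window, of 9 or 10 up to 500 kb and of 12 beyond. At the BN comparison windows it was 3 from 3 to 500 kb and 4 beyond. Closer than 3 kb, the medians were 0 in the 14 weak WKY windows and -16 in the 118 BN comparison windows. At that distance windows overlap by their length, so these medians are not read as an effect of distance.

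Far from strong hotspots, fewer weak WKY windows fell below the ceiling. Taking weak WKY windows of any SHR strength, 62.7% (61.6 to 63.8%) of the 7545 within 500 kb of a strong window had an SHR strength of 20 or less, against 47.2% (44.9 to 49.6%) of the 1715 beyond 500 kb and 41.4% (38.0 to 45.0%) of the 760 beyond 1 Mb. KO/wt strength, not used by the choice, differed in the same direction, with medians of 13 (12 to 13) within 500 kb and 20 (18 to 21) beyond. The WKY medians of the same windows were 116 and 114. The share below the ceiling was lower beyond 500 kb on 20 of 20 chromosomes, and the KO/wt median was higher there on 20 of 20. Among windows that overlap no other one, the shares were 63.8% and 47.1% and the KO/wt medians 12 and 20. A WKY call was present at 96.3% of the weak WKY windows within 500 kb and at 92.2% beyond. In those with a WKY call, the shares were 64.5% and 50.1% and the KO/wt medians 12 and 19. The difference was not limited to weak windows. At WKY strengths of 150 to 299, under the same BN and KO/KO limits, the KO/wt median was 26 (25 to 26) within 500 kb and 41 (38 to 43) beyond. Weak WKY windows in stretches without strong WKY hotspots thus had higher strengths in both SHR libraries at like WKY strength. What else differs between those stretches was not tested.

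**Figure D5:**
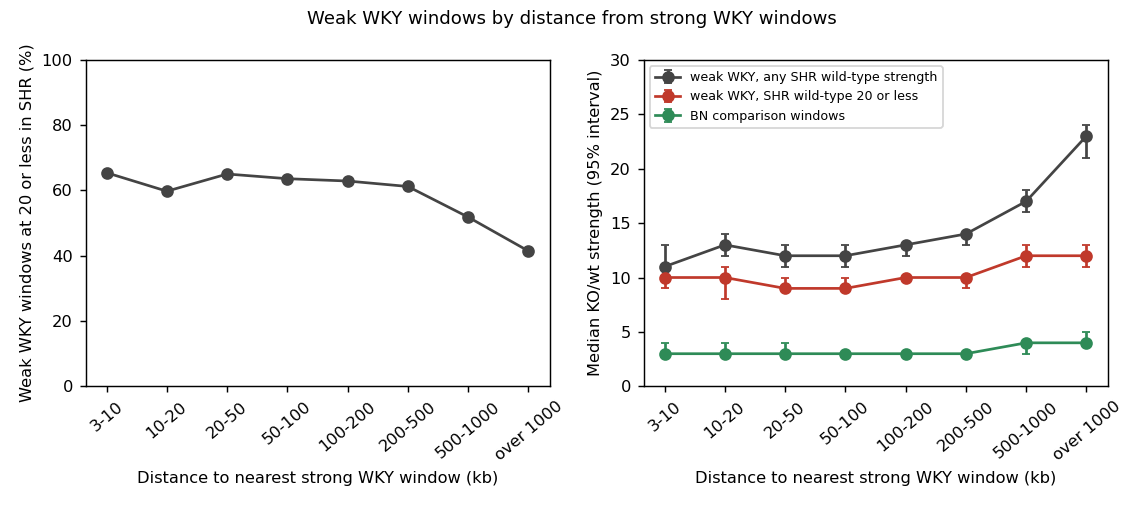
Share (%) of weak WKY windows at 20 or less in SHR (left, no error bars) and median KO/wt strength (authors' score) with its 95% interval over windows (right), by distance to the nearest strong WKY window (kb). The share goes from 65.4% at 3 to 10 kb to 41.4% beyond 1 Mb, and the KO/wt median of weak WKY windows of any SHR strength from 11 to 23, while below the ceiling it stays between 9 and 12 and at BN comparison windows at 3 or 4.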

How the data were processed

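The authors sequenced DMC1-bound single-stranded DNA from snap-frozen adult testes, mapped the reads to rn5 with an altered BWA and called hotspots in each library from type 1 fragments that mapped uniquely. The submitters' processing notes name BWA 0.7.12, bedtools 2.23.0 and MACS2 2.1.0.20150420. The deposited table gives each window a strength, which is a score whose scaling is not known, and a call mark of 1 or 0. Its 5 strength columns were matched to the 5 DMC1 libraries by strain and genotype. H3K4me3 and input libraries were not analysed here. Coordinates are those of rn5 as deposited. No rn5 genome or gene annotation was used here, so neither sequences nor genes are given.

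Windows were selected by the strength limits stated above. The members, comparison sets and limits were chosen with earlier results of these data known. Windows named in the text were the 3 highest and 2 lowest in KO/wt, the 2 lowest in wild-type SHR, the 2 nearest to a strong window without overlap, the 2 farthest, the longest runs and the extreme chromosomes. The call counts and medians have no replicate error, as each condition had 1 library. Shares carry Wilson 95% intervals, medians exact order-statistic intervals and means normal intervals, which treat windows as independent although 15870 autosomal windows overlap another. Distances are from centre to centre on the same chromosome. The functions were tested on simulated data of 91000 windows, and 7 of 7 checks were recovered. The alternatives were windows without overlap, other strength limits, called windows only, other comparison windows and other definitions of a strong window and of distance. Scripts ran in Python 3.11.15 with scipy 1.17.1, pandas 2.3.3 and numpy 2.4.6, and figures were drawn with matplotlib 3.10.9.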

Additional observations from a re-analysis of the deposited data

How the results depend on the processing

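Of 50 alternative values for 10 results, 22 stayed within the interval over windows or, for the number of windows, within 1.5 times the main number, and 28 moved outside it. Dropping the ceilings on BN and KO/KO gave 6800 windows in place of 5539. With an SHR ceiling of 10 in place of 20, 2998 windows were left, with a median KO/wt strength of 8, a share above 0 of 90.9% in KO/wt, a mean wild-type SHR strength of 4.08 and a share called in WKY of 99.37%. With a WKY strength of at least 120 these were 11, 93.9%, 9.84 and 99.56%, the median distance to a strong window was 134 kb and 41.0% lay within 100 kb. Without overlapping windows, KO/wt was above 0 in 94.2% and the share called in WKY was 99.35%, while the BN comparison windows had KO/wt above 0 in 75.6% and a mean wild-type SHR strength of 2.06. Counting windows above 10 in place of 0 gave 47.0% for the weak WKY windows and 8.01% for the BN comparison windows. In the mirrored BN windows the KO/wt median was 2, the share above 0 was 69.1% and the mean wild-type SHR strength 0.221. A WKY limit of 20 for the comparison windows gave 69.3% and 0.396, and holding them to the SHR and KO/KO ceilings, an alternative chosen after seeing the data, gave 72.7% and 0.954. Defining strong windows by a WKY strength of 300 or more gave a median distance of 71.9 kb and 60.6% within 100 kb, and 1000 or more gave 695 kb and 9.86%. Where these settings gave wild-type SHR or KO/wt values, they were higher at the weak WKY windows than at the comparison windows. Dropping the BN and KO/KO ceilings and redefining strong windows gave no such values. Restricting the set to windows called in WKY left its share called in WKY without meaning, so that value is not given. No paired analysis was possible because every condition had a single library and nothing was tested. Depth in reads is unknown, so it cannot be said how low a hotspot these libraries could have detected.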
